A study of Mus musculus with 6 samples.

Results

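The 35 genes described here carry glucose from the cell surface to lactate or into the mitochondrion. They encode glucose transporters, the enzymes of glycolysis and their regulators, lactate dehydrogenase, the lactate transporters, and the enzyme complex through which pyruvate enters the citric acid cycle with the kinases and phosphatase that control it. They were taken by symbol from a table of 54532 genes, and all 35 were found. RNA was measured in cells sorted on the integrin CD11c out of mouse melanomas on day 28, which the labels call dendritic cells. The tumours grew from a BRAFV600EPTEN-/- melanoma line implanted with matrigel into C57Bl/6 mice, after culture with puromycin, and both groups shared that line and that treatment. In 1 group the line also carried an active Gli2 mutation (Gli2CA, 3 libraries). In the control group it carried a non-targeted control (NTC, 3 libraries). The altered gene was in the tumour cells, while the sorted cells came out of the tumour around them, and the labels give neither the age of the mice nor whether each library was 1 mouse. The p-values below therefore measure the spread between these libraries, which may be technical. In bulk RNA of this kind, fewer cells of a type and less RNA per cell cannot be told apart.

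In glycolysis, hexokinase traps glucose in the cell, phosphofructokinase commits it to breakdown, and the steps that follow split the sugar and harvest ATP and NADH down to pyruvate. Lactate dehydrogenase then turns pyruvate to lactate, which leaves through monocarboxylate transporters, or the pyruvate dehydrogenase complex turns it to acetyl-CoA. Dendritic cells and macrophages raise glycolysis when microbial signals activate them, and in low oxygen the transcription factor HIF-1 induces many of these genes in most cell types.

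The libraries held about 18780000, 27880000 and 23160000 fragments in NTC 1, NTC 2 and NTC 3 and 29130000, 26520000 and 25490000 in Gli2CA 1, Gli2CA 2 and Gli2CA 3, as recovered from the deposited FPKM values (fragments per kilobase of transcript, scaled to the depth of each library). NTC 1 and NTC 3 had a value above 0 in only 11374 and 11871 genes, against 14364 in NTC 2 and 14253 to 15496 in the Gli2CA libraries. The sorted cells held the sort marker Itgax at 62.4 to 224 FPKM and the class II genes H2-Ab1 and Cd74 at 26996 to 42699 and 16185 to 25835 FPKM. They also held macrophage transcripts such as Apoe (1725 to 5912 FPKM) and T cell transcripts such as Trac (189 to 729 FPKM), neither of which defines dendritic cells. NTC 2 stood apart in stromal transcripts, with a summed 3404 FPKM over 7 fibroblast genes against 8.90 to 327 in the other 5 libraries.

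Most enzymes of the main glycolytic line, the lactate exporter Slc16a3 and the glucose transporter Slc2a1 were higher in all 3 Gli2CA libraries than in any NTC library, while pyruvate dehydrogenase and its kinases showed no common direction. None of these differences passed the test over all genes. With limma on log2(FPKM + 1), 0 of the 33 members tested reached an adjusted p of 0.05, as did 0 of all 12266 genes tested (0% of genes, 1304 at an unadjusted p under 0.05, and with voom on recovered reads 0 and 1621), and the smallest adjusted p among the members was 0.178. At an unadjusted p under 0.05, 15 of the 33 were higher in Gli2CA (background 7.82% of all genes) and 0 were lower (background 2.81%). The groups did not overlap in 13 of the 33, all higher in Gli2CA (background 10.9%), and in 0 lower (background 5.79%). The median log2 difference, Gli2CA minus NTC, was 0.85 over the 33 members and 0.25 over all genes tested. Because 1 FPKM was added before taking logs, differences of low genes come out smaller than their true ratios. A higher mean log2 level in Gli2CA was seen in 25 of the 33 members (background 59.7%). After quantile normalization, which put the median of all genes at -0.03, 14 members were higher at an unadjusted p under 0.05 (background 6.3%) and 0 lower (background 3.94%), 12 were higher without overlap (background 9.05%) and 0 lower (background 7.97%), and 25 of 33 had the higher mean (background 48.4%).

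The other 2 members lay under the mean of 1 FPKM needed for the test. Pfkfb2, a bifunctional regulator of phosphofructokinase, had 0, 0 and 0.0176 FPKM in the NTC libraries and 0.503, 0 and 0 in the Gli2CA libraries, in each case in the order 1, 2, 3. Pdk4, a pyruvate dehydrogenase kinase, was listed at 0 in all 6. Pfkm and Pdk2 passed that filter through 1 group only, and among the 31 members at 1 FPKM or more in each group 14 were higher at an unadjusted p under 0.05 (background 5.35% of 10414 such genes), 12 did not overlap (background 7.83%), and the median was 0.85 against 0.19. Without Gli2CA 2 the 15 members became 9 (724 of 12173 genes higher at that p), and without Gli2CA 1 they became 10 (589 of 12106). They became 6 when variances were estimated without a trend (962 of 12266 genes). Without both NTC 1 and NTC 3 the median of the members was 0.60, against -0.10 for all genes. Once the numbers in the sample descriptions entered as a replicate block, the 15 members became 2 (327 of 12266 genes). NTC 3 and Gli2CA 2 each had a description number of their own. That block therefore compared only NTC 1 with Gli2CA 1 and NTC 2 with Gli2CA 3. Of the 13 without overlap, 11 stayed apart after median-of-ratios scaling (1327 of 12266 genes) and 12 after quantile normalization (1110 of 12266). Median-of-ratios scaling also put 1 member lower in every Gli2CA library (683 of 12266 genes).

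**Figure D1:**
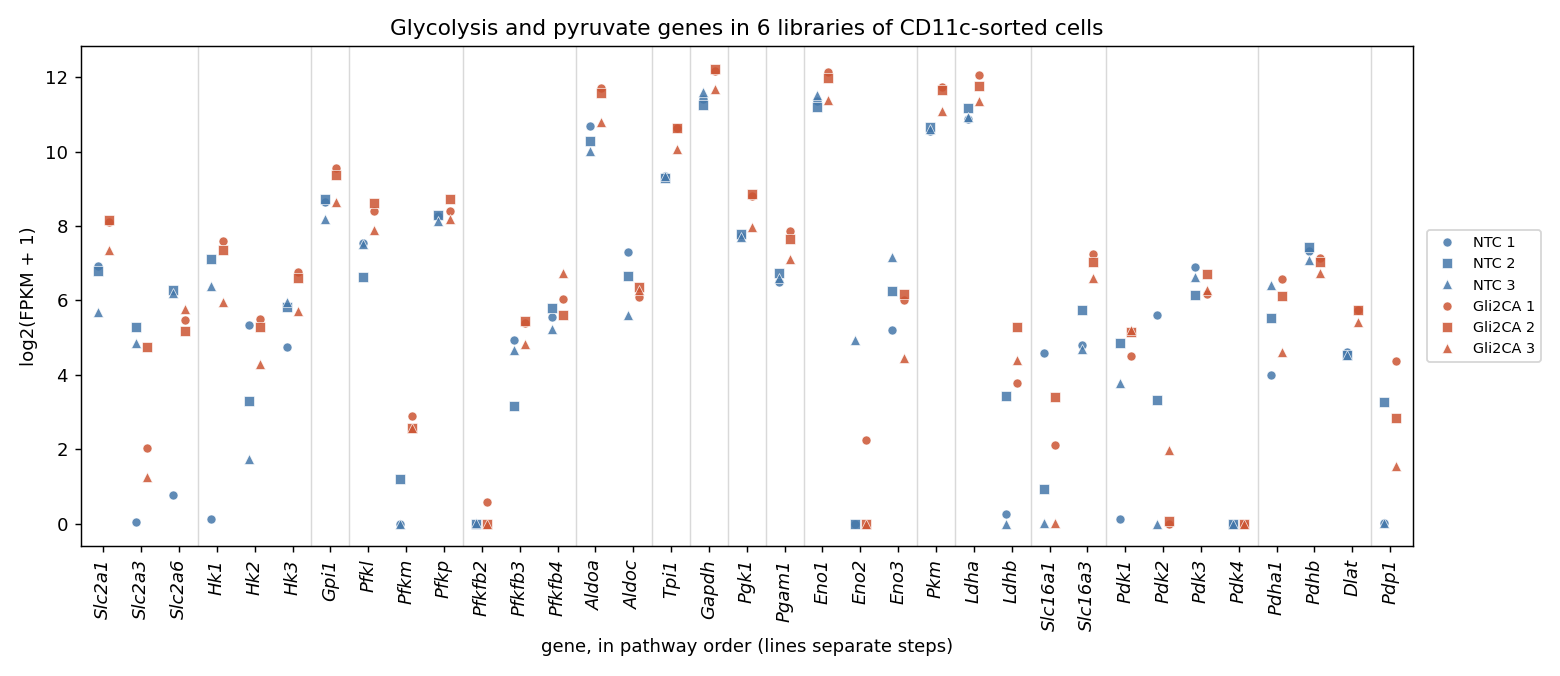
Level of each of the 35 genes as log2(FPKM + 1) in every library, with genes in pathway order and grey lines between steps. NTC libraries are blue and Gli2CA libraries red, and the shape gives the library number. Abundant enzymes such as Tpi1, Pkm and Ldha separate the groups with Gli2CA 3 the lowest of its group, while Hk1, Pdk1 and Pdp1 are near 0 in NTC 1.

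Glucose enters through the Slc2a family of transporters. Slc2a1 (GLUT1, the transporter of basal uptake, chromosome 4, 119108711 to 119137983 on GRCm38, as for all gene positions here) had 121, 109.7 and 50.3 FPKM in NTC 1, 2 and 3 and 276, 286 and 163 FPKM in Gli2CA 1, 2 and 3. All 3 Gli2CA libraries lay above all NTC libraries, with a log2 difference of 1.41 with an SE of 0.41 (adjusted p = 0.266 by limma). Slc2a3, the high-affinity GLUT3, had 0.0308, 38.1 and 27.8 FPKM in NTC and 3.08, 26.0 and 1.36 in Gli2CA. The lysosomal family member Slc2a6 had 0.696, 77.0 and 72.7 FPKM in NTC and 43.5, 35.2 and 53.7 in Gli2CA. Both overlapped between the groups, and in both NTC 1 was near 0 with 1 and 22 reads, while NTC 2 and NTC 3 were the highest of all libraries. The log2 difference of Slc2a6 was 1.06 with all libraries and -0.77 without NTC 1, and that of Slc2a3 was -0.72 with all libraries, 0.23 without NTC 2 and 0.007 without NTC 3.

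Hexokinase commits glucose to the cell. Hk1, the form bound to mitochondria and present in most tissues, had 0.0821, 139 and 82.1 FPKM in NTC and 193, 163 and 60.9 in Gli2CA. Only 2 reads lay behind the 0.0821 FPKM of NTC 1, and the log2 difference went from 2.43 to 0.22 without that library and to -0.16 without both NTC 1 and NTC 3. Hk2, the inducible form, had 39.3, 8.89 and 2.35 FPKM in NTC and 44.6, 37.7 and 18.5 in Gli2CA, where NTC 1 lay among the Gli2CA libraries. Hk3, a form of myeloid cells, had 25.8, 55.5 and 61.6 FPKM in NTC and 107, 96.9 and 51.9 in Gli2CA, where only Gli2CA 3 overlapped with NTC. No hexokinase separated the groups (limma, adjusted p = 0.621, 0.562 and 0.537 for Hk1, Hk2 and Hk3). Gpi1, which isomerises glucose-6-phosphate, had 403, 425 and 289 FPKM in NTC and 749, 659 and 399.99 in Gli2CA, so that Gli2CA 3 lay inside the NTC range and the others above it (adjusted p = 0.459 by limma).

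Of the phosphofructokinase subunit genes, Pfkl separated the groups and Pfkp did not. Pfkl, the liver-type subunit (chromosome 10, 77986947 to 78010083), had 185, 97.5 and 182 FPKM in NTC and 339, 396 and 235 in Gli2CA, with no overlap and a log2 difference of 1.08 with an SE of 0.34 (adjusted p = 0.305 by limma). Pfkp, the platelet-type subunit, had 309, 311 and 280.1 FPKM in NTC and 341, 422 and 291 in Gli2CA, a log2 difference of 0.21 with an SE of 0.22 with overlap (adjusted p = 0.726 by limma). The muscle-type Pfkm was minor, at 0, 1.31 and 0 FPKM in NTC and 6.38, 4.89 and 4.99 in Gli2CA, with 0 reads in NTC 1 and NTC 3. Pfkl made up 37.5, 23.8 and 39.4% of the summed phosphofructokinase FPKM in NTC 1, 2 and 3 and 49.4, 48.1 and 44.2% in Gli2CA 1, 2 and 3. The log2 ratio of Pfkl to Pfkp was -0.14 ± 0.16 in Gli2CA against -1.01 ± 0.58 in NTC (SD, n = 3 each), higher in 3 of 3 Gli2CA libraries (exact two-sided permutation p = 0.1, 0.55 adjusted over 11 ratios). With 3 libraries against 3, 0.1 is the smallest p this test can give, so none of the 11 ratios could pass 0.05. Such a ratio within a library does not depend on how libraries are scaled.

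Fructose-2,6-bisphosphate, the activator of phosphofructokinase, is made by the Pfkfb enzymes. Pfkfb3, the form with the strongest kinase activity, had 29.5, 7.90 and 24.6 FPKM in NTC and 40.9, 42.9 and 27.6 in Gli2CA, where Gli2CA 3 lay below NTC 1. Pfkfb4 had 46.0, 54.4 and 36.3 FPKM in NTC and 65.3, 48.0 and 106 in Gli2CA, and here Gli2CA 3 was the highest of all libraries. Summed over the Pfkfb genes the groups did not overlap, at 61.0 to 75.5 FPKM in NTC and 90.9 to 134 in Gli2CA, although neither gene separated them alone (limma, adjusted p = 0.584 and 0.628).

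Aldolase splits the phosphorylated sugar, and its major gene separated the groups while its minor gene did not. Aldoa (chromosome 7, 126795234 to 126800751) had 1663, 1244 and 1028 FPKM in NTC and 3352, 3071 and 1794 in Gli2CA, with no overlap and a log2 difference of 1.04 with an SE of 0.27 (adjusted p = 0.221 by limma), although the groups overlapped after median-of-ratios scaling. Aldoc, the brain-type form, had 156, 100.2 and 47.8 FPKM in NTC and 66.7, 81.8 and 76.6 in Gli2CA, and its NTC libraries spanned the whole Gli2CA range. Aldoa was 91.4 to 95.6% of aldolase FPKM in NTC and 95.9 to 98.0% in Gli2CA. The log2 ratio of Aldoa to Aldoc was 5.14 ± 0.56 in Gli2CA and 3.82 ± 0.53 in NTC, again higher in 3 of 3 libraries (exact two-sided permutation p = 0.1, 0.55 adjusted over 11 ratios).

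Triose phosphate isomerase had the smallest p among the members. Tpi1 (chromosome 6, 124810586 to 124814296), which interconverts the products of aldolase, had 651, 620.1 and 645 FPKM in NTC and 1591, 1597 and 1080.3 in Gli2CA. The NTC libraries lay within a narrow band and Gli2CA 3 stood between them and the other Gli2CA libraries, with a log2 difference of 1.13 with an SE of 0.19 (adjusted p = 0.178 by limma). Across all other settings and leave-outs that difference stayed between 1.04 and 1.32.

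The next enzymes, down to phosphoglycerate mutase, were higher in every Gli2CA library. Gapdh, which makes NADH, had 2752, 2461 and 3123 FPKM in NTC and 4619, 4809 and 3307 in Gli2CA. Pgk1, the first ATP-yielding enzyme, had 213, 222 and 209 FPKM in NTC and 443, 463 and 251 in Gli2CA. Pgam1, the mutase, had 88.4, 107 and 95.6 FPKM in NTC and 233, 199 and 139 in Gli2CA. In all 3 genes every Gli2CA library was above every NTC library, by log2 differences of 0.60 with an SE of 0.17, 0.79 with an SE of 0.28 and 0.94 with an SE of 0.29 (limma, adjusted p = 0.263, 0.367 and 0.31). For Gapdh the gap between Gli2CA 3 and NTC 3 was small, and the groups overlapped after median-of-ratios scaling.

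Enolase overlapped between the groups. Eno1, the main form, had 2621, 2342 and 2919.9 FPKM in NTC and 4511, 4024 and 2699 in Gli2CA, so that Gli2CA 3 lay below NTC 3 (adjusted p = 0.443 by limma). Eno3, the muscle-type form, had 36.0, 74.9 and 142 FPKM in NTC and 63.9, 71.5 and 20.8 in Gli2CA, with Gli2CA 3 the lowest of all. Eno2, the neuronal form, was at 0, 0 and 29.4 FPKM in NTC and 3.73, 0 and 0 in Gli2CA, that is, seen in 2 libraries, 1 from each group. Eno1 made up 94.5 to 98.6% of enolase FPKM in NTC and 98.3 to 99.2% in Gli2CA, with overlap.

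Pyruvate kinase ends the pathway. Pkm (chromosome 9, 59656368 to 59679375) had 1506, 1622 and 1569 FPKM in NTC and 3409.7, 3220.0 and 2199 in Gli2CA, with no overlap and a log2 difference of 0.89 with an SE of 0.18 (adjusted p = 0.195 by limma). The table gives 1 value per gene, so the spliced forms PKM1 and PKM2 were not told apart. Processed copies exist for several of these genes, and how the authors assigned reads shared with them is not given in the sources used here. The 12 copies that carry a parent's name in the gene table, such as Pgam1-ps2 and Eno1b, were at 6.91 FPKM or less in every library.

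**Figure D2:**
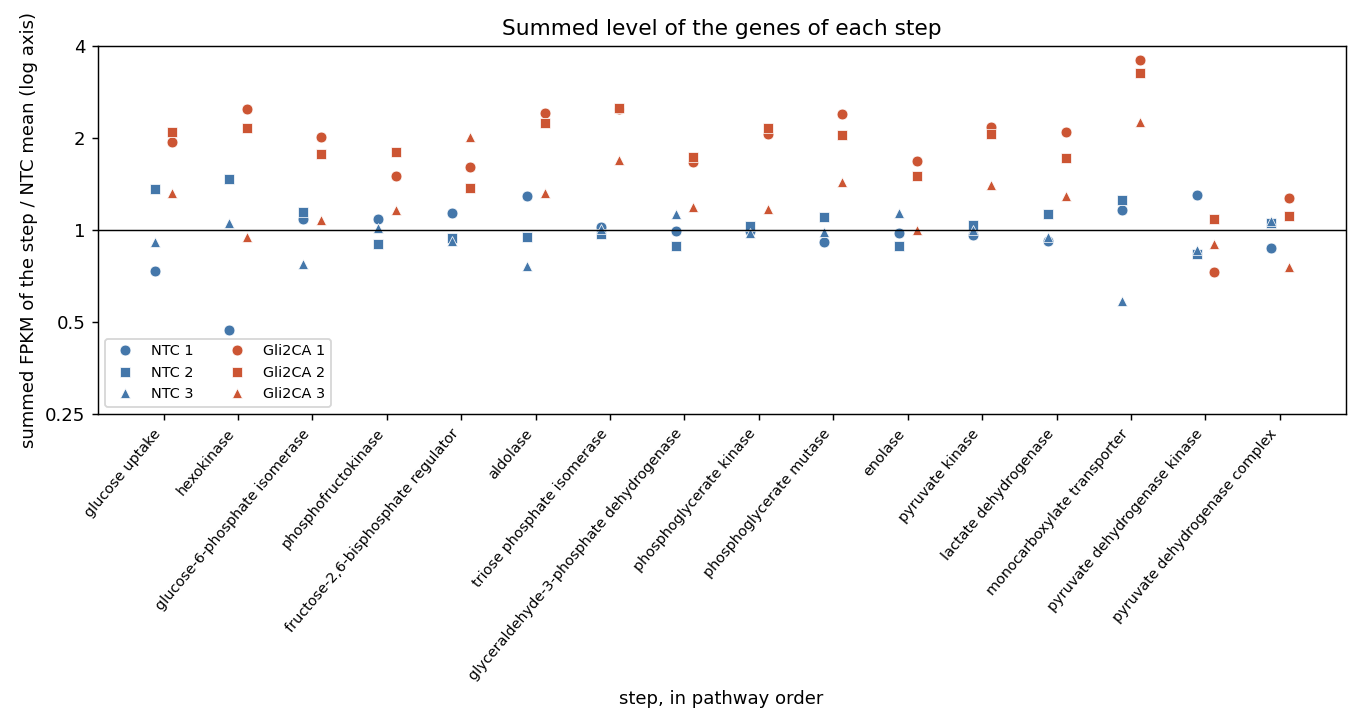
Summed FPKM of the genes of each step in each library, divided by the mean of the NTC libraries, on a log axis in pathway order. The phosphatase step is left out because NTC 1 and NTC 3 are near 0. Gli2CA libraries lie above all NTC libraries from phosphofructokinase to the monocarboxylate transporters except at enolase, and the groups overlap before phosphofructokinase and at the pyruvate dehydrogenase steps.

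Summed over the genes of a step, 10 of 17 steps were higher in every Gli2CA library, 0 were lower in every Gli2CA library and 7 overlapped. The 10 ran from phosphofructokinase to lactate export, with enolase overlapping. The ratio of group means was 1.49 for phosphofructokinase, 1.99 for aldolase, 2.23 for triose phosphate isomerase, 1.88 for pyruvate kinase and 3.04 for the monocarboxylate transporters. The overlapping steps were glucose uptake, hexokinase, glucose-6-phosphate isomerase, enolase, and the kinases, core and phosphatase of pyruvate dehydrogenase.

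Lactate dehydrogenase and lactate export came next. Ldha, the subunit that favours lactate (chromosome 7, 46841475 to 46855627), had 1891, 2312 and 1950.5 FPKM in NTC and 4299.6, 3503 and 2623 in Gli2CA. Its groups did not overlap, with a log2 difference of 0.74 with an SE of 0.19 (adjusted p = 0.221 by limma), although they did after quantile normalization. Ldhb, the heart-type subunit, had 0.189, 9.70 and 0 FPKM in NTC and 12.7, 38.3 and 20.2 in Gli2CA, and the reads behind the NTC values were 3, 229 and 0. Every Gli2CA library was above every NTC library, with a log2 difference of 3.27 with an SE of 1.09 (adjusted p = 0.335 by limma) that was 1.08 without both NTC 1 and NTC 3. Ldhb was at most 1.08% of lactate dehydrogenase FPKM in any library, so the total was nearly all Ldha.

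The lactate exporter Slc16a3 (MCT4, chromosome 11, 120948480 to 120960868) had 26.7, 52.9 and 25.01 FPKM in NTC and 151, 130.4 and 96.7 in Gli2CA. All 3 Gli2CA libraries lay well above NTC 2, the highest control, and the log2 difference was 1.89 with an SE of 0.41 (adjusted p = 0.195 by limma), or 1.21 without both NTC 1 and NTC 3. Slc16a1 (MCT1), which also imports lactate, had 23.1, 0.899 and 0.00975 FPKM in NTC and 3.30, 9.51 and 0.0177 in Gli2CA. It ranged from near 0 to its maximum within each group, NTC 1 being the highest, and its log2 difference of -0.001 changed sign in 7 of 19 other settings.

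**Figure D3:**
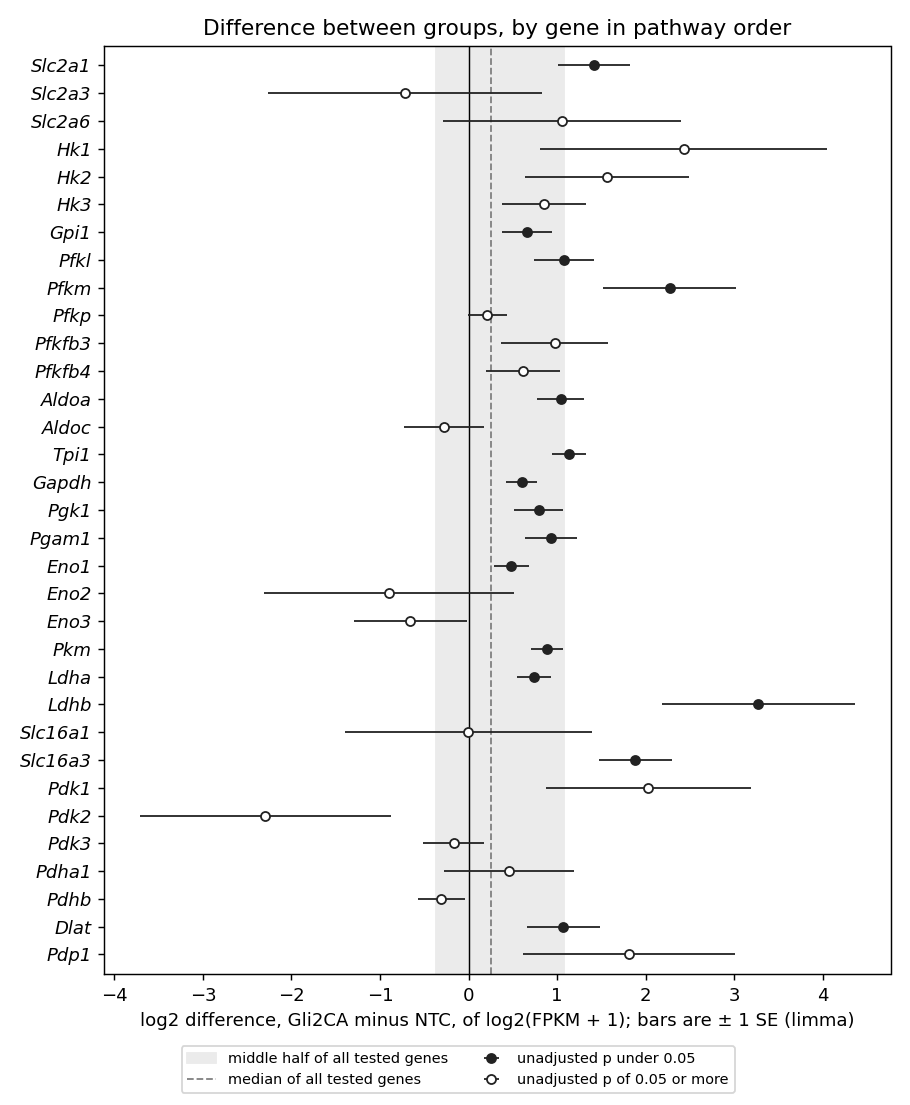
Log2 difference, Gli2CA minus NTC, of each of the 33 tested genes with ± 1 SE from limma, in pathway order. Filled points have an unadjusted p under 0.05, the dashed line is the median of all 12266 tested genes at 0.25 and the grey band their interquartile range, from -0.37 to 1.08. The 15 filled points all lie to the right of 0, and the wide bars belong to genes near 0 in at least 1 library.

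Pyruvate dehydrogenase kinases switch the complex off and so hold pyruvate back from the mitochondrion. Pdk1, a kinase that HIF-1 induces, had 0.0888, 28.2 and 12.6 FPKM in NTC and 21.9, 34.4 and 35.6 in Gli2CA. NTC 1 had 3 reads and NTC 2 lay inside the Gli2CA range, and the log2 difference went from 2.03 to 0.63 without NTC 1 and to 0.08 without both NTC 1 and NTC 3. Pdk3, the most abundant of the 4, had 119, 69.2 and 97.4 FPKM in NTC and 70.9, 105 and 76.1 in Gli2CA, with complete overlap (adjusted p = 0.867 by limma). Pdk2 had 47.6, 8.92 and 0 FPKM in NTC and 0, 0.0402 and 2.93 in Gli2CA, high in NTC 1 alone, and its log2 difference of -2.29 was -0.98 without NTC 1. The ratio of Pdk1 to Pdk3 overlapped between the groups (exact two-sided permutation p = 0.3, 0.55 adjusted over 11 ratios).

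The complex, summed over its subunit genes, overlapped between the groups. Pdha1, the catalytic alpha subunit, had 14.8, 44.7 and 84.0 FPKM in NTC and 93.8, 68.0 and 23.4 in Gli2CA, and the ranges of the groups overlapped almost throughout. Pdhb, the beta subunit, had 159, 172 and 135 FPKM in NTC and 141, 130.4 and 105 in Gli2CA, leaning lower in Gli2CA with overlap (adjusted p = 0.684 by limma). Dlat, the acetyltransferase core subunit (chromosome 9, 50634633 to 50659780), had 23.5, 22.0 and 22.1 FPKM in NTC and 52.3, 52.1 and 41.7 in Gli2CA. Dlat was thus the one subunit gene among the members with separate groups, with a log2 difference of 1.07 with an SE of 0.41 (adjusted p = 0.404 by limma), and its share of the summed subunit FPKM was 9.17 to 11.9% in NTC and 18.2 to 24.5% in Gli2CA. Pdp1, the phosphatase that reactivates the complex, had 0.0196, 8.66 and 0.0159 FPKM in NTC and 19.8, 6.16 and 1.92 in Gli2CA, with 1 read each in NTC 1 and NTC 3 and 657 in NTC 2. The ratio of Ldha to Pdha1 overlapped widely, with log2 values of 6.00 ± 0.70 in Gli2CA against 5.74 ± 1.23 in NTC (SD, n = 3 each, exact two-sided permutation p = 1). It compares Ldha with a single subunit gene of the complex and does not measure the production of lactate or acetyl-CoA.

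**Figure D4:**
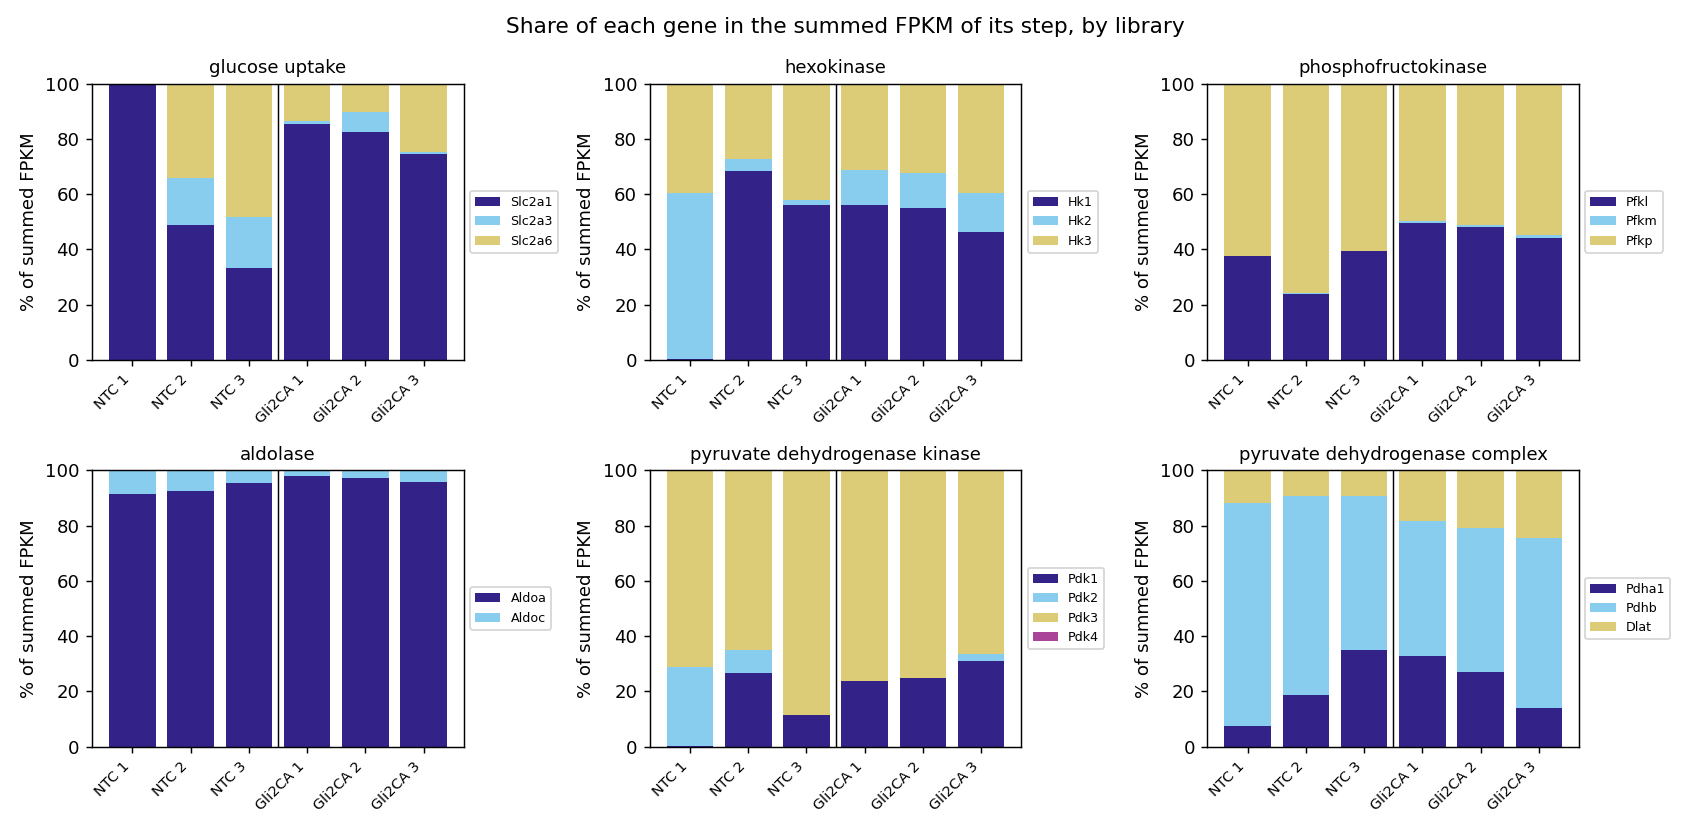
Share of each gene in the summed FPKM of its step, in percent, for 6 steps and every library, with a line between NTC and Gli2CA. Pfkl, Aldoa and Dlat take larger shares in all 3 Gli2CA libraries, while NTC 1 differs from every other library in hexokinase and glucose uptake, where Hk1 and Slc2a6 are nearly absent.

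The remaining ratios overlapped between the groups. They were Slc2a1 to Slc2a3 and Slc2a6, Hk2 to Hk1 and Hk3, Pfkfb3 to Pfkfb4, Eno1 to the other enolases, Ldha to Ldhb, Slc16a3 to Slc16a1, and Pdk1 to Pdha1, with exact two-sided permutation p of 0.2 to 1. In the 3 Gli2CA libraries Hk2 was a steady 12.9, 12.7 and 14.1% of hexokinase FPKM, while in NTC 1, 2 and 3 it was 60.2, 4.38 and 1.61%.

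The spread between libraries depended on the level of a gene. The 14 members with a mean of 100 FPKM or more had a median coefficient of variation of 11.5% among NTC libraries and 25.0% among Gli2CA libraries. For all 1456 genes at that level the values were 27.1% and 15.8%, so the median of the members was below that of all such genes in NTC and above it in Gli2CA. The larger spread in Gli2CA had 1 order, since Gli2CA 3 was the lowest of its group in 14 of those 14 members and in 24 of all 33 tested. How often Gli2CA 3 was the lowest over all genes was not counted, so this order cannot be called particular to the members. Among the 14, 11 were higher at an unadjusted p under 0.05 (background 12.1% of the 1456 genes) and 9 had separate groups (background 14.6%). Their median log2 difference was 0.84, against -0.05 for the 1456. The 19 members under 100 FPKM had a median coefficient of variation of 85.5% in NTC and 40.1% in Gli2CA. Of these 19, 9 were under 1 FPKM in at least 1 library, 4 were higher at an unadjusted p under 0.05 (background 7.24% of 10810 genes) and 4 had separate groups (background 10.4%).

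Promoter sequences are shown because many of these genes are textbook targets of HIF-1, whose core sites read ACGTG or GCGTG. Windows of 250 bases before the transcription start came from RefSeq on GRCm38.p6, and 33 of the 35 genes matched, with 49 windows. These are not the 33 tested members, since Slc2a3 and Pdp1 had no window and the untested Pfkfb2 and Pdk4 had one. On either strand, 16 of the 33 genes (48.5%) had ACGTG in a window and 22 (66.7%) had GCGTG, against 25.3% and 49.3% of 8932 tested genes with such a window and 18.5% and 30.9% of all 27025 genes. A gene with more windows has more places for a match. Counted by window, the shares were 40.8% and 55.1% of the 49 windows of the members. They were 21.6% and 43.6% of the 11448 windows of tested genes. The median GC content of the windows was 60.4% for the members, 59.6% for tested genes and 52.4% for all. Windows with at most 30 bases in a GENCODE exon were eligible to be shown. Where a gene had several, the one with most matches was taken. The genes shown were picked by name rather than by a rule, and each held a match. The first 4 below are members whose groups did not overlap, and the last 2, Pfkp and Pdha1, are members whose groups did. Each sequence reads 5′ to 3′ on the gene's strand, and capitals mark a match to either core on either strand.
Pgk1 (chrX:106186850-106187099, plus strand): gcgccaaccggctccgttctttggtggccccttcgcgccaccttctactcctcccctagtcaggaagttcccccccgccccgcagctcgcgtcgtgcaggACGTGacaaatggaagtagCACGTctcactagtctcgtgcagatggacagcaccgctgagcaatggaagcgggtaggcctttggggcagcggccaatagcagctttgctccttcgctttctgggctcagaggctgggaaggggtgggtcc
Pgam1 (chr19:41911621-41911870, plus strand): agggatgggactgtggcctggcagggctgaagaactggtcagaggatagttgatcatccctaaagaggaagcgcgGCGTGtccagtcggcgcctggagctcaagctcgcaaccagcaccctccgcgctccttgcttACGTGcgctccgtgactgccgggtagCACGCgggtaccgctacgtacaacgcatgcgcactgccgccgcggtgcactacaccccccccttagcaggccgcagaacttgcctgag
Ldha (chr7:46845554-46845803, plus strand): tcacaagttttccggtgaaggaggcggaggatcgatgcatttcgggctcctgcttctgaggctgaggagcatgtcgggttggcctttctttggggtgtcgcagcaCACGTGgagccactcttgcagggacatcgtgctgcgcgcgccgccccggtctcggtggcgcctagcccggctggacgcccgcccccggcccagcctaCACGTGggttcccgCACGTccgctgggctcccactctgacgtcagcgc
Slc16a3 (chr11:120948817-120949066, plus strand): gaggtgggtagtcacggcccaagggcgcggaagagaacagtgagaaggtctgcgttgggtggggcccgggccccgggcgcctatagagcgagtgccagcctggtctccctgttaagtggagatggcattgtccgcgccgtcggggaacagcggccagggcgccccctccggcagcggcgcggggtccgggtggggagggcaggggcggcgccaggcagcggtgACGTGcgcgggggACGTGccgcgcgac
Pfkp (chr13:6648772-6649021, minus strand): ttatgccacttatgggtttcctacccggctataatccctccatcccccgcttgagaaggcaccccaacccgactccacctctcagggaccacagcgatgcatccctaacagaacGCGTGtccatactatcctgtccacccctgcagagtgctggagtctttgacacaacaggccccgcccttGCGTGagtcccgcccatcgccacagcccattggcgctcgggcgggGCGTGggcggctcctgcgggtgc
Pdha1 (chrX:160138431-160138680, minus strand): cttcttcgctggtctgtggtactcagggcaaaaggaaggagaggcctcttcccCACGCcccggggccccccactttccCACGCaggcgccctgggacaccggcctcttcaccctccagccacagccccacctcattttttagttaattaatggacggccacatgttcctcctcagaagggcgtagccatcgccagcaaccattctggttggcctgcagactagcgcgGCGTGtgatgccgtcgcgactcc
The Ldha window held 5 matches, 4 of them in 2 copies of a palindrome in which both strands match at overlapping bases, and Slc16a3 held 2 copies of ACGTG close to the start. Pgk1 and Pgam1 held 2 and 3 matches, and Pfkp and Pdha1 held 3 each, so the letters were present in genes with and without separate groups. Tpi1, with the smallest p, and Dlat had no match in their windows, although 138 of the 250 bases of the Tpi1 window lay in a GENCODE exon.

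Genes next to the pathway were described by the same fit. Of 30 other glycolysis and pyruvate genes, 14 were tested, 3 were higher at an unadjusted p under 0.05 (background 7.82%) and 0 lower (background 2.81%), and the median log2 difference was 0.93 against 0.25 for all genes. Of the 14, 10 were at 1 FPKM or more in each group, of which 2 were higher at that p (background 5.35%), with a median of 0.82 against 0.19. Dld, the third enzyme of the pyruvate dehydrogenase complex, had a mean of 86.1 ± 9.01 FPKM in the Gli2CA libraries against 43.5 ± 12.1 in the controls (SD, n = 3 each, adjusted p = 0.38 by limma), without overlap as for Dlat. Bsg, the chaperone that brings MCT4 to the membrane, had a mean of 568 ± 174 FPKM in the Gli2CA libraries against 344 ± 78.3 in the controls, with overlap (adjusted p = 0.452 by limma). Slc16a7 (MCT2), which passed the filter through Gli2CA only, was at 0.0166, 0.0448 and 0 FPKM in NTC and 2.65, 1.25 and 4.95 in Gli2CA. The median of these 14 genes was 0.51 without Gli2CA 2 and 0.42 after quantile normalization.

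The HIF pathway list had 13 of 14 tested genes with the higher mean in Gli2CA, 4 at an unadjusted p under 0.05 (background 7.82%), and a median of 1.81. Bnip3, a mitophagy receptor, had a mean of 362 ± 146 FPKM in the Gli2CA libraries against 66.7 ± 36.1 in the controls (adjusted p = 0.195 by limma), and the carbonic anhydrase Car9 had a mean of 25.7 ± 7.11 FPKM in the Gli2CA libraries against 1.86 ± 1.80 in the controls (adjusted p = 0.216 by limma). In Bnip3 and Car9, as in the members at a mean of 100 FPKM or more, Gli2CA 3 was the lowest of its group, at 193 and 18.1 FPKM. Vegfa, an angiogenic growth factor, had 0.0866, 23.0 and 0 FPKM in NTC and 34.3, 40.5 and 30.7 in Gli2CA, where NTC 2 alone of the controls was above 0.1. The median of this list was 0.64 without both NTC 1 and NTC 3.

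In the pentose phosphate pathway, which makes NADPH and ribose, 6 of 8 tested genes had the lower mean in Gli2CA, 2 at an unadjusted p under 0.05 (background 2.81%), and the median was -0.76. The transaldolase gene Taldo1 had a mean of 829 ± 54.0 FPKM in the Gli2CA libraries against 1452 ± 707 in the controls without overlap (adjusted p = 0.459 by limma), and the transketolase gene Tkt had a mean of 209 ± 41.0 FPKM in the Gli2CA libraries against 333 ± 83.5 in the controls (adjusted p = 0.459 by limma). Rpia, ribose-5-phosphate isomerase, was at 0.531, 0 and 0 FPKM against 3.83, 0.347 and 15.8 in NTC. The pentose phosphate median was -0.70 over the 7 genes at 1 FPKM or more in each group, which leaves out Rpia, and -0.31 without both NTC 1 and NTC 3.

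In the citric acid cycle, 8 of 16 genes had the higher and 8 the lower mean, the median was -0.01, and 0 were higher (background 7.82%) and 2 lower (background 2.81%) at an unadjusted p under 0.05. Those 2 also had separate groups, lower in Gli2CA (background 5.79%). Mdh2, mitochondrial malate dehydrogenase, had a mean of 419 ± 64.2 FPKM in the Gli2CA libraries against 664 ± 112 in the controls (adjusted p = 0.313 by limma), and Fh1, fumarase, had a mean of 132 ± 22.0 FPKM in the Gli2CA libraries against 285 ± 127 in the controls (adjusted p = 0.355 by limma). Of the glycogen and gluconeogenesis genes 12 were tested and 10 had the higher mean, with a median of 0.67, and 1 was higher (background 7.82%) and 1 lower (background 2.81%) at an unadjusted p under 0.05. That median was 0.11 without NTC 1, 1.14 without NTC 3, 0.20 without both, 0.44 without Gli2CA 1 and 1.27 with voom. Gaa, the lysosomal glycogen-breaking enzyme, had 0, 19.4 and 0.0885 FPKM in NTC and 34.0, 14.7 and 26.2 in Gli2CA. Pygb, the brain-type glycogen phosphorylase, had a mean of 42.8 ± 20.7 FPKM in the Gli2CA libraries against 88.4 ± 14.1 in the controls without overlap (adjusted p = 0.443 by limma). Gys1, glycogen synthase, had 4.27, 28.6 and 0 FPKM in NTC and 35.5, 37.2 and 13.9 in Gli2CA.

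**Figure D5:**
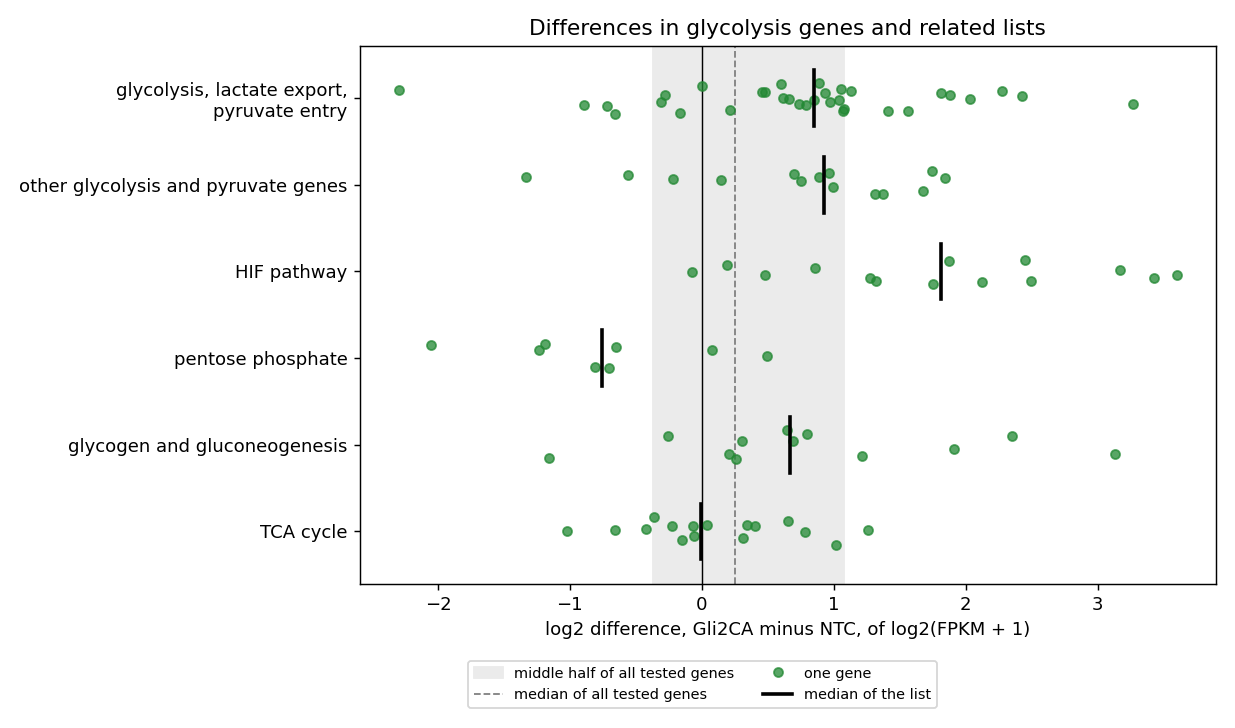
Log2 difference, Gli2CA minus NTC, of each tested gene in 6 lists, with a bar at the list median. The dashed line and grey band are the median and interquartile range of all 12266 tested genes. The medians are 0.85 for the 33 genes described here, 0.93 for other glycolysis and pyruvate genes, 1.81 for the HIF pathway, -0.76 for pentose phosphate, 0.67 for glycogen and gluconeogenesis, and -0.01 for the citric acid cycle.

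Cell type markers also had different levels in the groups, and their part in the differences above was not tested. Monocyte markers summed to 3785, 3396 and 4788 FPKM in Gli2CA 1, 2 and 3 and to 2098, 1663 and 2018 in NTC, with all 10 higher on average (background 59.7%) and 4 at an unadjusted p under 0.05 (background 7.82%). Their most abundant genes were Plac8 and Ms4a4c. Gli2CA 3 had the highest monocyte sum of its group but the lowest mean log2 level over the same 10 genes, at 6.46 against 7.17 and 6.99 in Gli2CA 1 and Gli2CA 2 and 5.43 to 5.44 in NTC. The 10 markers of cDC1, the cross-presenting dendritic cells, summed to 1211 to 1357 FPKM in Gli2CA and 1836 to 3214 in NTC, 6 of them lower at an unadjusted p under 0.05 (background 2.81%), with Irf8 and Naaa the most abundant. The 8 genes of the conventional dendritic cell core summed to 43649 to 52496 against 53285 to 67402 FPKM, with 3 lower at an unadjusted p under 0.05 (background 2.81%). H2-Ab1 and Cd74 made up most of these sums. Of the 8, 3 were lower in every Gli2CA library (background 5.79%) and 4 overlapped. The sort marker Itgax was the 1 gene with the higher mean, at 145, 224 and 118 FPKM in Gli2CA against 115, 117 and 62.4 in NTC, without overlap.

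Macrophage markers, led by Apoe and C1qb, overlapped, at 5738 to 10558 FPKM in Gli2CA and 7046 to 9973 in NTC, with 2 of 12 higher at an unadjusted p under 0.05 (background 7.82%). Neutrophil markers summed to 564 to 1173 against 57.0 to 299 FPKM. Il1r2 made up most of that sum in Gli2CA, at 846, 546 and 865 FPKM against 33.2, 242 and 0.336 in NTC. Of the 6 neutrophil markers tested it alone had separate groups (background 10.9%), and the other 5 overlapped. S100a9 was at 12.2, 8.13 and 112 FPKM in Gli2CA against 41.1, 9.82 and 29.7 in NTC. Of the 6, 2 had the lower mean log2 level in Gli2CA, S100a9 among them. Ly6g and Retnlg were listed at 0 in all libraries. T cell markers, led by Trac and Trbc2, summed to 849 to 1313 against 1326 to 2275 FPKM. Of these 8 genes, 3 were lower at an unadjusted p under 0.05 (background 2.81%) and 5 overlapped between the groups. Cd4 was the 1 T cell gene with the higher mean, at 24.4 FPKM in Gli2CA against 7.45 in NTC. B cell markers, mostly Ighm and then Cd79b, summed to 118 to 207 against 463 to 680 FPKM. Of the 3 B cell genes tested only Ighm was lower, at a mean of 143 FPKM in Gli2CA against 601 in NTC. The other 2 had the higher mean, with Cd79b at 15.6 FPKM in Gli2CA against 3.50 in NTC. Of 8 melanocyte markers, Sox10 was listed at 0 in all NTC libraries and at 19.8, 12.1 and 18.4 FPKM in Gli2CA, and Mitf was at 5.93 FPKM or less. The pigment genes Mlana, Dct, Tyr, Tyrp1 and Slc45a2 were listed at 0 in all 6 libraries, and Pmel in 5 of them. Plasmacytoid dendritic cell markers, led by Bst2 and Tcf4, overlapped between the groups at 280 to 715 FPKM. Endothelial markers, led by Pecam1 and Kdr, overlapped at 0.0972 to 26.4 FPKM, and erythroid markers, led by Hba-a1 and Hbb-bs, at 46.3 to 180 FPKM. Fibroblast markers, led by Col3a1 and Col1a1, overlapped too, with NTC 2 the highest library.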

How the data were processed

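The 6 RNA libraries, 3 for each group, came from CD11c-sorted cells of melanomas. Tumours, per the labels' protocols, were broken up enzymatically, cells were sorted by flow cytometry, and poly-T-purified RNA went into NEBNext Ultra II libraries. The authors deposited 1 table of FPKM values, for which aligner, counting tool, strand setting, build and annotation are not given in the sources. Columns were matched to samples by the sample descriptions, and libraries are numbered by their titles, so NTC 2 and NTC 3 are described with the numbers 3 and 4.

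A symbol was found for 54409 of 54532 gene IDs. Coordinates and lengths are those of GENCODE M21 on GRCm38, counted from 1. A symbol with more than 1 ID (Aldoa) took the ID with the higher mean. For 96.7 to 98.3% of values of up to 20 reads, FPKM times mean transcript length came to whole reads within 0.05 of a read at 1 fixed step for each library, which gave the fragment numbers. Precision at low levels is limited by these reads, counting error only.

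Group was the single term of a linear model of log2(FPKM + 1), fitted with limma (3.58.1, under R 4.3.3) with a variance trend and Benjamini-Hochberg adjustment over the 12266 genes whose mean reached 1 FPKM. It was tried on simulated data with the same independent noise for every gene. Such data lack the uneven spread of these libraries, so that trial does not measure how the test performs on them. Count models were not used as the main test, FPKM being normalized. Ratios of FPKM were compared by an exact two-sided permutation test over libraries, and for Ldha to Ldhb 0.1 FPKM was added to both. Alternatives were another pseudocount, filters, scalings, variance models, limma's voom on recovered reads, replicate blocks, and leaving out libraries. Same-numbered libraries did not deviate together. Named genes were all 35 members and up to 3 tested genes of smallest p in each related list. The most abundant 2 markers of each cell type were also named. The sort marker Itgax, the T cell marker Cd4, other markers at 0 and the named copies were added after values were seen. A further gene the rule names is not reported here. The members and lists were chosen with earlier results of these data known. Tables were handled in Python 3.11.15 (pandas 2.3.3, numpy 2.4.6) and plots drawn in matplotlib 3.10.9.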

Additional observations from a re-analysis of the deposited data

How the results depend on the processing

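With limma, 0 of 12266 genes passed an adjusted p of 0.05 and 1304 had an unadjusted p under 0.05 (voom on recovered reads: 0 and 1621). After quantile normalization 21 genes passed, none of them a member, and the leave-one-out sets gave 0 to 6. The 1304 became 393 with a replicate block by description number and 766 to 2362 when 1 library was left out, the latter without NTC 2. The 15 members higher at an unadjusted p under 0.05 became 14 with a replicate block by title number, 2 with a block by description number, 6 with no variance trend, 5 without both NTC 1 and NTC 3, and 9 to 15 in the leave-one-out sets, where 0 to 1 was lower. Libraries with the same title number correlated at -0.042, -0.002 and -0.007 in their deviations from group means. Those with the same description number, NTC 1 with Gli2CA 1 and NTC 2 with Gli2CA 3, correlated at -0.042 and -0.064. Neither number was therefore taken as a pairing. As NTC 3 and Gli2CA 2 share a description number with no other library, the description block left them out of the comparison. The members' median of 0.85 ranged from 0.60 to 1.08 over 19 other settings. Quantile normalization moved the median of all genes from 0.25 to -0.03 and that of the members to 0.72. The median of other glycolysis and pyruvate genes was 1.59 with a pseudocount of 0.1, 0.42 after quantile normalization, 1.68 with voom, 0.45 without both NTC 1 and NTC 3 and 0.51 to 1.09 leaving 1 library out. That of pentose phosphate was -0.63 with the description block, -0.31 without both NTC 1 and NTC 3 and -0.84 to -0.52 leaving 1 out, that of the HIF pathway was 0.64 without both, and that of glycogen and gluconeogenesis was 0.11 to 1.14 leaving 1 out. The cause of these shifts was not tested.

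The direction of 24 of 33 members held in every other setting run. The other 9 had adjusted p-values of at least 0.613 in limma. Slc16a1 (-0.001) was 0.20 with a pseudocount of 0.1, 0.031 after rescaling to one sum, 0.76 with array weights, 0.52 with voom, 0.92 without both NTC 1 and NTC 3, and -0.916 to 1.37 leaving 1 library out. Slc2a3 was 0.028 with voom. Leaving 1 library out gave -2.395 to 0.23 for Slc2a3, -0.77 to 1.99 for Slc2a6, -0.734 to 0.11 for Aldoc, -0.377 to 0.01 for Pdk3 and -0.20 to 1.04 for Pdha1. The last 4 changed sign without NTC 1, Slc2a3 without NTC 2 or NTC 3, and Slc16a1 without NTC 1 or Gli2CA 3. Without both NTC 1 and NTC 3, Slc2a6, Hk1, Pdk3 and Pdp1 were -0.81, -0.16, 0.25 and -0.35. Eno2 was 1.12 with the description block. Among the members with 0 to 3 reads in some libraries were Pfkm, Ldhb, Pdk2 and Pdp1. In Pfkm, Ldhb and Pdp1 those libraries were NTC 1 and NTC 3, the shallowest. Slc2a3, Hk1 and Pdk1 had 1, 2 and 3 reads in NTC 1. Pdk2 had 838 reads in NTC 1 and 0 in NTC 3 and in Gli2CA 1, the deepest library. The part of depth in these values was not tested.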
